A study of Mus musculus with 12 samples.

Results

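The Hox cluster genes are the homeobox transcription factor genes of the 4 mouse Hox clusters. They were taken as every gene in the deposited count table whose symbol is Hox followed by a cluster letter from a to d and a paralogue number, which gave 39 of 27179 genes. In the RefSeq annotation of GRCm38.p6, cluster A lies on chr6 with 11 members, cluster B on chr11 with 10, cluster C on chr15 with 9 and cluster D on chr2 with 9. The clusters span 105.5 kb, 173.9 kb, 115.7 kb and 96.92 kb.

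RNA was sequenced from basal and luminal epithelial cells of mammary glands of female mice, in 4 groups of 3 biological replicates. Basal knockout-labelled and luminal knockout-labelled cells came from MMTV-cre/Foxp1(fl/fl) mice, in which Cre recombinase is driven by the mouse mammary tumour virus promoter and floxed alleles of Foxp1, a forkhead transcription factor gene, can be deleted. Basal control and luminal control cells came from Foxp1(fl/fl) mice without the Cre label, so the floxed alleles are shared by all 4 groups. The age of the mice is not given in the sources used here, and the MMTV promoter is known in mice to be active in mammary epithelium and also in salivary gland and skin. The design sets the knockout label against the control within each cell type, and the cell types against each other.

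Hox genes lie in each cluster in an order that matches where along the body axis they are used, so low paralogue numbers at the 3′ end mark anterior positions and high numbers at the 5′ end mark posterior ones. Hox proteins bind DNA through the homeodomain, usually together with Pbx and Meis proteins, and adult tissues keep part of the Hox pattern of the place where they formed. Polycomb complexes hold the clusters silent, trithorax complexes hold them active, and retinoic acid induces genes near the 3′ end. In the mouse mammary gland, loss of the paralogues Hoxa9, Hoxb9 and Hoxd9 together impairs the growth of the gland in pregnancy, Hoxc8 acts in the placing of embryonic mammary buds, and Hoxc6 has been tied to growth of the gland.

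Over the whole coding sequences in the GENCODE annotation of GRCm38, 1 of 569 pairs of members from different clusters shared an exact run of 50 or more bases, and the longest run was 52 bases, shared by Hoxa6 and Hoxb4. The read length is not given in the sources used here.

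RefSeq upstream windows of GRCm38.p6 were found for 22 of the 39 members, in 24 windows of 250 bases. One window of Hoxa10 and that of Hoxd4 are shown because they hold the short forkhead core TGTTTA or its reverse complement, in capitals, and both genes are among the 4 members with the lowest p in the basal comparison below. The other window of Hoxa10 and those of Hoxd8 and Hoxd9, which come next after Hoxa10 by that p, hold no match. That of Hoxb4 is shown as the window of a member with a high level in every library, with no match.
Hoxa10, chr6:52240855-52241104, minus strand: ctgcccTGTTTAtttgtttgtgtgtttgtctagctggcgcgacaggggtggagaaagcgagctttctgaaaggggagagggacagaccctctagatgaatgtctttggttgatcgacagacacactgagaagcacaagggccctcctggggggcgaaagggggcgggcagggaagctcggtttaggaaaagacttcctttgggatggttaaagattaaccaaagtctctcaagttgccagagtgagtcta
Hoxd4, chr2:74721728-74721977, plus strand: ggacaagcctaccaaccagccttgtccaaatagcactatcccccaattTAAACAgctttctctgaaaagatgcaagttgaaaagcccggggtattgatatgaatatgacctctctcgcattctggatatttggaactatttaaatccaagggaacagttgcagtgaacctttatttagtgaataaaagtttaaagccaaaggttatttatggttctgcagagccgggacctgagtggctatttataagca
Hoxb4, chr11:96318017-96318266, plus strand: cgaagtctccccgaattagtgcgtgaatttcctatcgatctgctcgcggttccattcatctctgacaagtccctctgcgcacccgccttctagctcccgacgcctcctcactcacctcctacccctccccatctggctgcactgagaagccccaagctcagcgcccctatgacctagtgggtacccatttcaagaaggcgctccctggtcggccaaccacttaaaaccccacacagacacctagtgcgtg
The core TGTTTA, searched on both strands, was in 3 of the 24 Hox windows (Hoxa10, Hoxb8 and Hoxd4), against 12% of all 32851 windows of the same length. The longer forkhead motif TGTTTAC, which contains it, was in 0 of the 24 and in 3.17% of all windows. The homeobox core TAATTA was in 2 Hox windows, both of Hoxd11, against 4.84% of all windows, and the Pbx-Hox motif TGATNNAT was in 4, those of Hoxa2, Hoxb1, Hoxb8 and Hoxd11, against 7.68%. These matches describe letters in a window and say nothing of binding.

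Depth limited what could be measured. Total counts were between 9769361 and 11133908 in 11 libraries and 15449513 in luminal knockout-labelled replicate 3. The 39 members together held 708, 1019 and 320 counts in the basal knockout-labelled libraries, against 352, 416 and 340 in basal controls. They held 264, 403 and 312 counts in the luminal knockout-labelled libraries, against 308, 348 and 263 in luminal controls. Levels are given as CPM (counts scaled by the TMM-adjusted library total) within a gene, and as RPKM (CPM per kilobase of the deposited gene length) between genes. A default expression filter left 9 members in the test (Hoxa10, Hoxb2, Hoxb3, Hoxb4, Hoxb9, Hoxc4, Hoxd4, Hoxd8 and Hoxd9), and 30 were too low. Hoxc12 had 0 counts in all 12 libraries.

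The labelled cell types carried their markers: 15 basal epithelial markers such as Krt5 and Krt14 summed to 20745 to 28865 CPM in the basal libraries and to 275 to 1144 CPM in the luminal ones, and 15 luminal markers such as Krt8 and Krt18 to 11552 to 23587 CPM in the luminal libraries and to 1707 to 3079 CPM in the basal ones. The Foxp1 count takes reads from every exon and so also from outside the deleted part. It was not called in basal cells, where the groups overlapped, and was higher with the knockout label in luminal cells. Foxp1 had 212, 193 and 284 CPM in basal knockout-labelled cells, against 221, 213 and 160 CPM in basal controls (log2 fold change 0.22, SE 0.19, adjusted p = 0.926). It had 161, 150 and 155 CPM in luminal knockout-labelled cells, against 82.3, 62 and 78.2 CPM in luminal controls (log2 fold change 1.07, SE 0.19, adjusted p = 0.0161). The groups are therefore called by their labels throughout.

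The highest Hox levels were those of 3 neighbours in cluster B. Hoxb2, Hoxb3 and Hoxb4, anterior members that pattern the hindbrain in the embryo, were the highest 3 of the 39 by mean RPKM over all libraries. Together they held 32.1%, 53.1% and 62.5% of the Hox counts in the basal knockout-labelled libraries, against 79.5%, 84.6% and 40% in basal controls. Their share was 74.2%, 70.2% and 78.2% in the luminal knockout-labelled libraries, against 88.6%, 90.5% and 70% in luminal controls. Hoxb2, at chr11:96351632-96354020, averaged 5.50 ± 3.08 RPKM in basal knockout-labelled cells, 3.72 ± 0.53 in basal controls, 3.71 ± 0.79 in luminal knockout-labelled cells and 4.57 ± 0.98 in luminal controls (SD, n = 3 each). Hoxb3, at chr11:96307101-96347930, averaged 4.95 ± 2.38, 4.14 ± 2.37, 3.15 ± 0.87 and 3.74 ± 0.99 RPKM in the same 4 groups. Hoxb4, at chr11:96318267-96321638, averaged 1.44 ± 0.54, 1.12 ± 0.23, 1.02 ± 0.12 and 1.17 ± 0.17 RPKM. Hoxb2 and Hoxb3 overlapped in their ranges in every group, and Hoxb4 lay below both in every library. The fourth, Hoxd8, had a mean over all libraries of 1.18 RPKM, the fifth, Hoxd4, 0.546 RPKM and the sixth, Hoxd9, 0.447 RPKM.

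**Figure D1:**
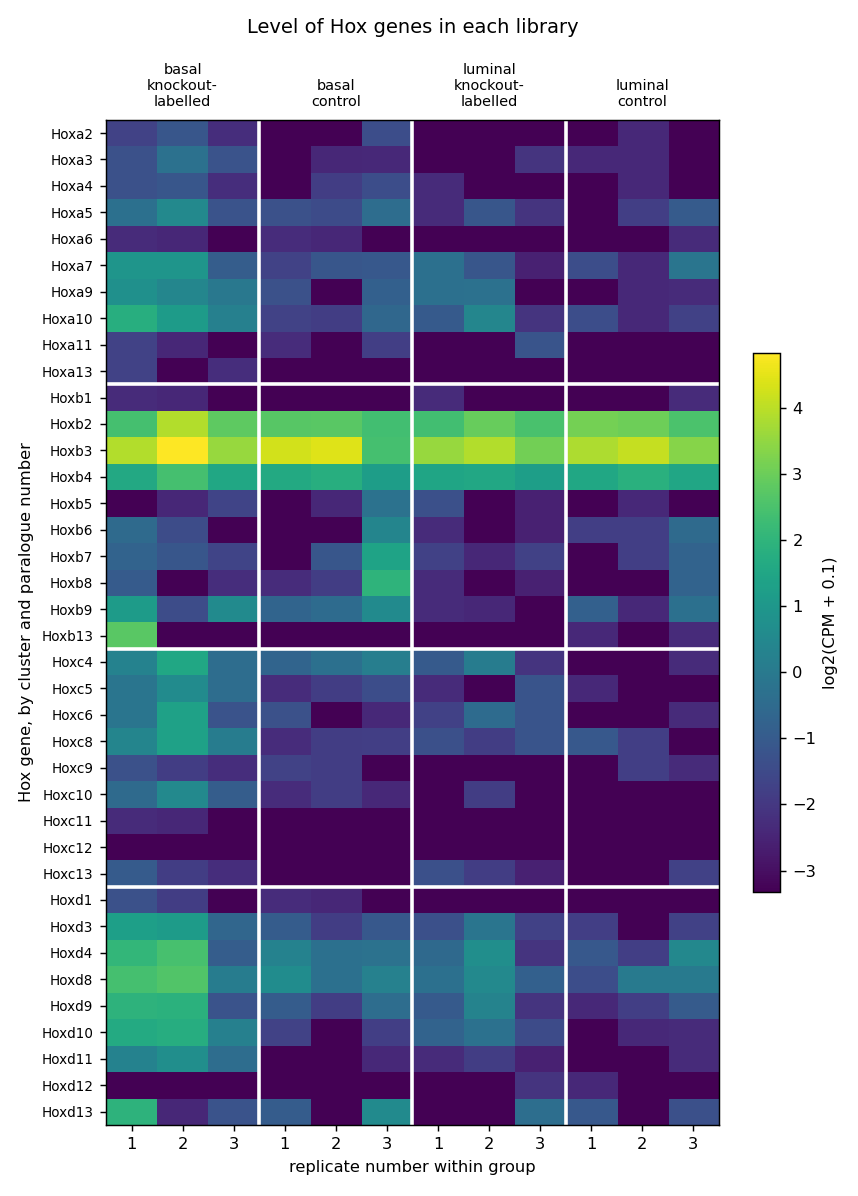
Heat map of the level of 38 of the 39 Hox genes (rows, by cluster and paralogue number) in each of the 12 libraries (columns, by group), as a colour scale of log2(CPM + 0.1). Hoxb2, Hoxb3 and Hoxb4 are bright in all 12 libraries, and most other members are brightest in basal knockout-labelled replicates 1 and 2.

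Per library, Hoxb2 had 5.27, 14.7 and 6.95 CPM in basal knockout-labelled cells, against 6.53, 6.61 and 5.08 CPM in basal controls. Hoxb3 had 14.8, 28.5 and 11.9 CPM in basal knockout-labelled cells, against 19.5, 21.4 and 5.27 CPM in basal controls. Hoxb4 had 2.94, 5.29 and 2.82 CPM in basal knockout-labelled cells, against 3.01, 3.39 and 2.22 CPM in basal controls. Basal knockout-labelled replicate 2 was the highest library for all 3 genes and basal control replicate 3 the lowest of its group, and the groups overlapped. In luminal knockout-labelled cells Hoxb2 had 5.09, 7.52 and 5.54 CPM, against 8.61, 8.14 and 5.63 CPM in luminal controls. Hoxb3 had 11.8, 14.9 and 8.47 CPM in luminal knockout-labelled cells, against 14.1, 17.5 and 10.2 CPM in luminal controls. Hoxb4 had 2.69, 2.86 and 2.27 CPM in luminal knockout-labelled cells, against 2.81, 3.51 and 2.71 CPM in luminal controls. The luminal groups overlapped for each of the 3 genes. The library kit does not mark strand, and in the annotation 52.9% of the exon bases of Hoxb3 and 27.3% of those of Hoxb2 lie over the antisense gene Hoxb3os, so reads of sense and antisense RNA cannot be told apart there. Of the 39 members, 16 share exon bases with another gene, among them Hoxd3 and Hoxd4, with 62.9% and 52.3% of their exon bases.

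**Figure D2:**
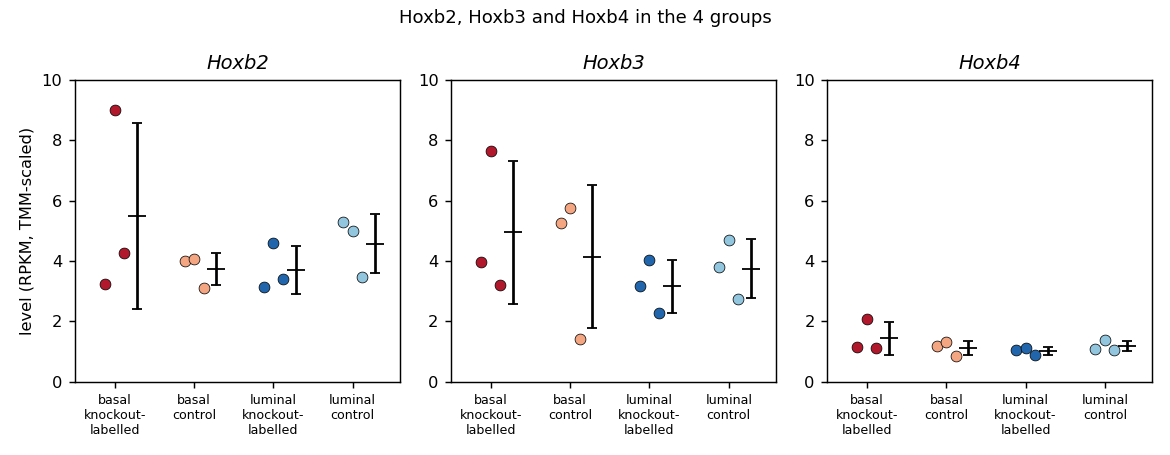
Level in RPKM of Hoxb2, Hoxb3 and Hoxb4 (panels) by group, with a point for each library and bars for the mean ± SD of 3 libraries. Hoxb2 averaged 5.50 RPKM in basal knockout-labelled cells and 3.72 RPKM in basal controls, with overlapping points, and the points of the 4 groups overlap for each gene.

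The rest of cluster B was much lower. Hoxb5 to Hoxb9, 5 neighbours of the trio, summed to 3.65, 0.985 and 1.96 CPM in basal knockout-labelled cells, against 0.622, 1.25 and 9.79 CPM in basal controls. They summed to 0.798, 0.179 and 0.400 CPM in luminal knockout-labelled cells, against 0.655, 0.555 and 2.31 CPM in luminal controls. Basal control replicate 3 was apart from the other control libraries, with 13, 28 and 42 counts of Hoxb6, Hoxb7 and Hoxb8. Cluster A summed to 9.22, 8.51 and 3.48 CPM in basal knockout-labelled cells, against 1.35, 1.16 and 2.86 CPM in basal controls, with Hoxa7, Hoxa10 and Hoxa9 its highest members by mean RPKM. Cluster C summed to 5.37, 10.8 and 3.26 CPM in basal knockout-labelled cells, against 1.35, 1.43 and 1.66 CPM in basal controls, with Hoxc4, Hoxc6 and Hoxc8 its highest. Cluster D summed to 23.7, 22.4 and 4.35 CPM in basal knockout-labelled cells, against 4.15, 1.88 and 4.53 CPM in basal controls, with Hoxd8, Hoxd4 and Hoxd9 its highest. The summed levels of A and C did not overlap between these basal groups, and those of D did. In luminal knockout-labelled cells cluster A summed to 1.99, 2.68 and 0.868 CPM, against 0.655, 0.740 and 1.61 CPM in luminal controls. Cluster C summed to 1.30, 2.15 and 1.20 CPM in luminal knockout-labelled cells, against 0.468, 0.370 and 0.503 CPM in luminal controls. Cluster D summed to 2.59, 5.73 and 2.07 CPM in luminal knockout-labelled cells, against 1.40, 1.39 and 3.32 CPM in luminal controls. Of these luminal sums, that of C alone did not overlap between groups. By paralogue number, groups 1 to 4 averaged 39.0 ± 19.4 CPM in basal knockout-labelled cells and 26.7 ± 9.89 CPM in basal controls, and groups 9 to 13 averaged 15.9 ± 10.5 CPM in basal knockout-labelled cells and 2.94 ± 1.87 CPM in basal controls (SD, n = 3 each). In the luminal cells groups 9 to 13 averaged 2.92 ± 1.39 CPM in knockout-labelled cells and 1.49 ± 0.79 CPM in controls. No test was made on these sums.

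**Figure D3:**
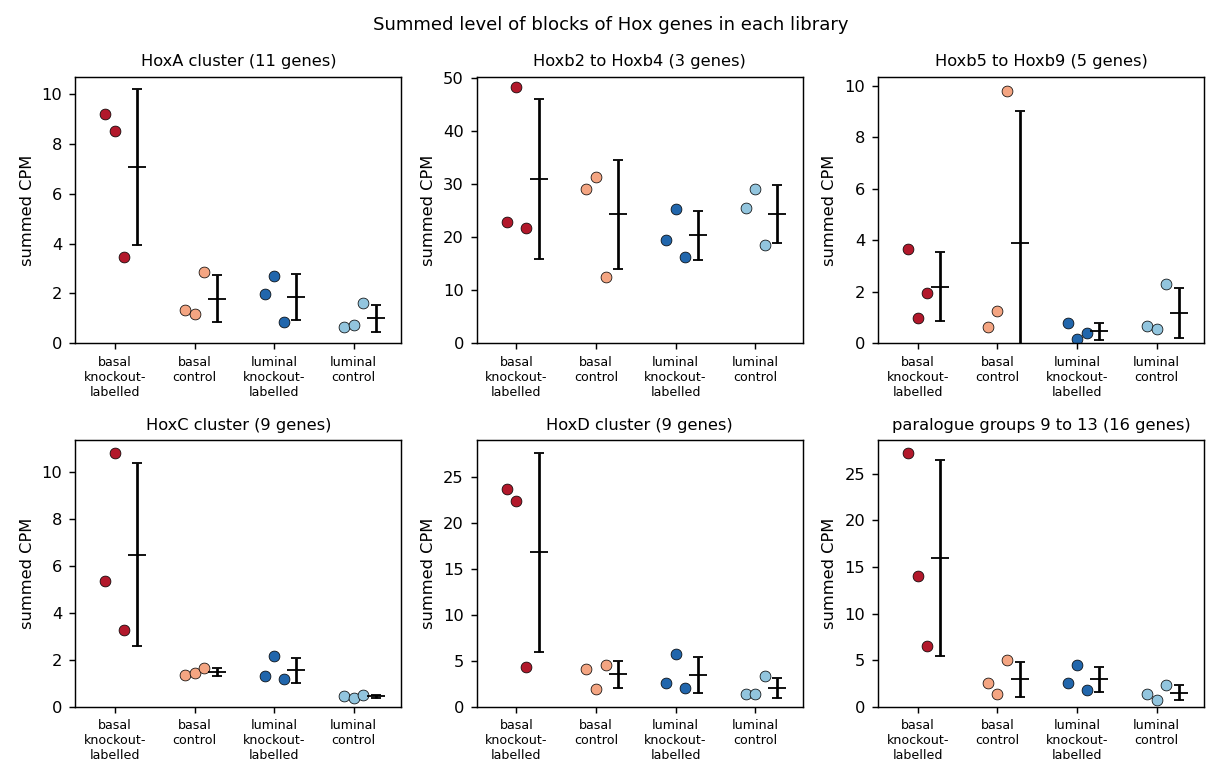
Summed level in CPM of blocks of Hox genes by group, with a point for each library and bars for the mean ± SD of 3 libraries; lower bars end at 0. Cluster D reaches 23.7 and 22.4 CPM in basal knockout-labelled replicates 1 and 2 and 4.35 CPM in replicate 3, and 9.79 CPM of Hoxb5 to Hoxb9 stands alone in basal control replicate 3.

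In basal cells, the 36 members other than Hoxb2, Hoxb3 and Hoxb4 summed to 48.7, 42.8 and 13 CPM in knockout-labelled libraries, against 7.47, 5.72 and 18.8 CPM in controls. The first and second knockout-labelled replicates were above every control and the third was among them. In the test per gene, 0 of the 9 tested members passed an adjusted p of 0.05 in edgeR. Over all 14903 genes tested, 0.671% were called. An unadjusted p under 0.05 was reached by 3 of the 9 members, against 8.88% of all genes tested. Of the other tools, limma-voom called 0 members and 0.939% of the genes it tested. DESeq2 called 3 members, Hoxc8, Hoxd11 and Hoxd10, which the filter of the edgeR test had left out, and 2.46% of the 16863 genes it tested. All 9 fitted folds were above 0, with a median log2 fold change of 1.01, against -0.01 over all genes tested. A member high in 1 group can pass the filter through that group alone. The count with an unadjusted p under 0.05, the count of folds above 0 and the median therefore describe the members. They do not weigh for a change.

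Hoxa10, a posterior member known for its role in the uterus, at chr6:52231197-52240854, had 3.34, 2.15 and 1.09 CPM in basal knockout-labelled cells (33, 24 and 10 counts), against 0.207, 0.179 and 0.554 CPM in basal controls (2, 2 and 6 counts). Its groups did not overlap, and its log2 fold change was 2.76 (SE 0.76, adjusted p = 0.152). Hoxd8 had 5.27, 6.09 and 0.978 CPM in basal knockout-labelled cells, against 1.45, 0.715 and 1.11 CPM in basal controls (log2 fold change 1.91, SE 0.66, adjusted p = 0.299). Hoxd9 had 3.75, 3.58 and 0.326 CPM in basal knockout-labelled cells, against 0.415, 0.179 and 0.647 CPM in basal controls (log2 fold change 2.61, SE 0.90, adjusted p = 0.300). Hoxd4 had 4.15, 5.46 and 0.435 CPM in basal knockout-labelled cells, against 1.14, 0.715 and 0.739 CPM in basal controls (log2 fold change 1.96, SE 0.91, adjusted p = 0.574). For the 3 cluster D genes the first and second knockout-labelled replicates were above every control and the third lay among the controls for Hoxd8 and Hoxd9 and below them for Hoxd4. Hoxc4, the highest member of its cluster, had 11, 31 and 6 counts in basal knockout-labelled libraries, against 5, 8 and 11 in basal controls. The other fitted log2 fold changes were 1.01 (SE 0.71) for Hoxc4, 0.56 (SE 0.37) for Hoxb2, 0.56 (SE 0.75) for Hoxb9, 0.36 (SE 0.33) for Hoxb4 and 0.26 (SE 0.48) for Hoxb3, each with an adjusted p between 0.836 and 0.986.

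Over all 39 members, tested or not, 13 had CPM values that were higher in every knockout-labelled basal library than in every basal control, and 0 were lower throughout. Of the 9 tested members 1, Hoxa10, was higher throughout. Among all genes tested, 8.15% were higher and 4.21% lower throughout in this comparison. The other 12 of the 13 members were left out by the filter, so these shares do not cover genes as low as they are. Among the 13 were Hoxa3, Hoxa7, Hoxa9, Hoxa10, Hoxc5, Hoxc6, Hoxc8, Hoxc10, Hoxc13, Hoxd3, Hoxd10 and Hoxd11. Hoxd10, a posterior gene known in mouse for hindlimb innervation, at chr2:74684273-74695106, had 30, 37 and 10 counts in basal knockout-labelled libraries, against 2, 0 and 2 in basal controls, a ratio of summed counts of 20.2 after scaling (exact 95% counting interval 7.56 to 75.8). Without the filter, edgeR tested 38 members and called Hoxd10 alone (log2 fold change 4.18, SE 0.81, adjusted p = 0.0393), where 0.512% of 21487 genes were called. Hoxd11 had 11, 17 and 6 counts in basal knockout-labelled libraries, against 0, 0 and 1 in basal controls (ratio 35.6, interval 5.97 to 1447). Hoxc8 had 12, 27 and 9 counts in basal knockout-labelled libraries, against 1, 2 and 2 in basal controls (ratio 10.1, interval 4.02 to 32.4). Hoxa7, the highest member of cluster A per length, had 18, 20 and 4 counts in basal knockout-labelled libraries, against 2, 4 and 4 in basal controls. Hoxc6 had 8, 27 and 3 counts in basal knockout-labelled libraries, against 3, 0 and 1 in basal controls, so for both genes the lowest knockout-labelled library was level with the highest control in counts and above it only after scaling. These intervals cover counting error only, and a library with 10 counts of a gene is imprecise whatever the spread between mice.

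Of paralogue group 9, Hoxa9 had 16, 14 and 8 counts in basal knockout-labelled libraries, against 3, 0 and 5 in basal controls. Hoxb9 had 21, 3 and 13 counts in basal knockout-labelled libraries, against 5, 7 and 15 in basal controls. Hoxc9 had 3, 2 and 1 counts in basal knockout-labelled libraries, against 2, 2 and 0 in basal controls. Of the 4 paralogues, counting Hoxd9 above, Hoxa9 alone had basal groups that did not overlap.

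**Figure D4:**
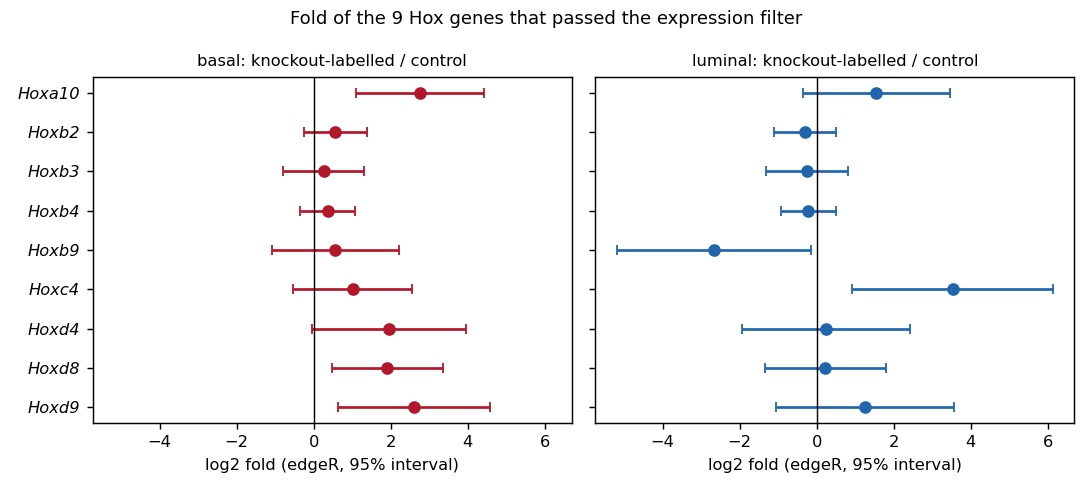
Fitted log2 fold change with its 95% interval for the 9 tested Hox genes, knockout-labelled over control, in basal and luminal cells. Hoxa10 has the highest basal value at 2.76, and the luminal values of Hoxc4 and Hoxb9 rest on 1 control count and 2 knockout-labelled counts.

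Of the lists of markers of other cells, that of fibroblasts alone had sums that did not overlap between the basal groups. The sums of keratinocyte, endothelial, immune, salivary gland and adipocyte markers overlapped. A list of 16 fibroblast markers, all in the table and none at 0 in a basal library, summed to 4992, 5592 and 3445 CPM in basal knockout-labelled cells, against 2954, 2618 and 2066 CPM in basal controls. Of the 16, Pdgfra (log2 fold change 2.41, SE 0.36, adjusted p = 0.0138) and Dpp4 (log2 fold change 2.85, SE 0.53, adjusted p = 0.0395) rose and 0 fell, where 0.671% of all genes tested were called. An unadjusted p under 0.05 was reached by 12 of the 16, against 8.88% of all genes tested, and their median log2 fold change was 2.37, against -0.01 over all genes tested. In basal knockout-labelled replicate 3 the fibroblast sum was above every control. The summed Hox level outside the trio in that library, 13 CPM, was below that of basal control replicate 3 and above those of the other basal controls. Its cluster A and cluster C sums were above every basal control, and its cluster D sum was not. A list of 12 keratinocyte markers, added after the data were seen, summed to 438, 150 and 81.5 CPM in basal knockout-labelled cells, against 43.9, 21.5 and 1095 CPM in basal controls. Fewer cells of a type and less RNA per cell cannot be told apart in bulk samples, and the part of these cells in the Hox levels was not tested.

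Hoxb13, Hoxd13 and Hoxa11os, named after their values were seen, had counts unevenly spread over the basal libraries. Hoxb13, a far posterior member known in mouse for prostate development, at chr11:96194316-96196610, had 66, 0 and 0 counts in basal knockout-labelled libraries, against 0, 0 and 0 in basal controls, and 0 to 1 in the luminal libraries. Hoxd13, known for digit formation, had 37, 1 and 3 counts in basal knockout-labelled libraries, against 4, 0 and 15 in basal controls, and 0, 0 and 10 in luminal knockout-labelled libraries, against 4, 0 and 3 in luminal controls. The antisense gene Hoxa11os had 28, 3 and 0 counts in basal knockout-labelled libraries, against 1, 0 and 8 in basal controls. Each was highest in replicate 1 of the basal knockout-labelled group, and Hoxd13 and Hoxa11os were highest among basal controls in replicate 3. These 2 libraries had the highest keratinocyte sums of the basal cells. Hoxb13 had 0 counts in that control, and Hoxd13 had 0 in luminal knockout-labelled replicate 2, the luminal library with the highest keratinocyte sum. The part of keratinocytes in these counts was not tested. Without the 3 libraries with the highest keratinocyte sums, chosen after seeing the data (basal knockout-labelled replicate 1, basal control replicate 3 and luminal knockout-labelled replicate 2), 0 of 7 tested members were called in the basal comparison, and Hoxd10 had a log2 fold change of 4.36 (SE 1.08, adjusted p = 0.193, edgeR).

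**Figure D5:**
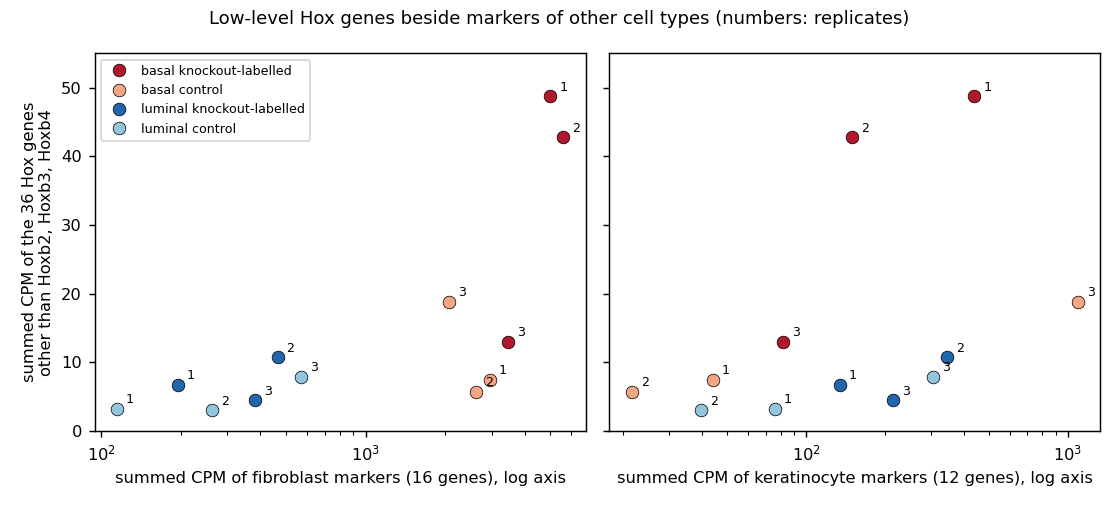
Summed level of the 36 Hox genes other than Hoxb2, Hoxb3 and Hoxb4 (CPM) against the summed level of fibroblast markers (left) and keratinocyte markers (right), both in CPM, with a point for each of 12 libraries; the marker axes are on a log scale and the Hox axis is linear. Basal knockout-labelled replicates 1 and 2 are the highest in Hox level, at 48.7 and 42.8 CPM, and basal control replicate 3 is the highest in keratinocyte markers, at 1095 CPM.

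In luminal cells, 0 of the 9 tested members passed in edgeR, where 3.03% of all genes tested were called. DESeq2 and limma-voom also called 0 members, where they called 6.64% and 2.93% of the genes they tested. In edgeR, 2 members had an unadjusted p under 0.05, as did 17.2% of all genes tested. The median log2 fold change of the 9 was 0.23, against -0.03 over all genes tested. Hoxc4, an anterior member at chr15:103018097-103036856, had 4, 11 and 2 counts in luminal knockout-labelled libraries, against 0, 0 and 1 in luminal controls. Its groups did not overlap, as for 13.1% of genes tested in this direction, and its ratio of summed counts was 14.8 (exact 95% counting interval 2.31 to 617, adjusted p = 0.146 in edgeR). Hoxb9 had 1, 1 and 0 counts in luminal knockout-labelled libraries, against 5, 1 and 7 in luminal controls, a ratio of 0.134 (interval 0.0146 to 0.591, adjusted p = 0.262 in edgeR). Hoxa10 had 4, 14 and 2 counts in luminal knockout-labelled libraries, against 3, 1 and 2 in luminal controls (log2 fold change 1.55, SE 0.87, adjusted p = 0.402). Hoxd9 had 4, 13 and 2 counts in luminal knockout-labelled libraries, against 1, 2 and 4 in luminal controls (log2 fold change 1.25, SE 1.05, adjusted p = 0.599). Replicate 2 of the knockout-labelled group was the highest library for Hoxc4, Hoxa10 and Hoxd9. The trio had log2 fold changes of -0.30 (SE 0.37) for Hoxb2, -0.25 (SE 0.48) for Hoxb3 and -0.21 (SE 0.33) for Hoxb4. Hoxd8 had 7, 15 and 7 counts in luminal knockout-labelled libraries, against 3, 10 and 9 in luminal controls (log2 fold change 0.23, SE 0.72). Hoxd4 had 6, 17 and 2 counts in luminal knockout-labelled libraries, against 4, 2 and 13 in luminal controls (log2 fold change 0.25, SE 0.999).

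Among the members too low to test, Hoxd10 had 5, 8 and 4 counts in luminal knockout-labelled libraries, against 0, 1 and 1 in luminal controls, and Hoxc6 had 2, 7 and 5, against 0, 0 and 1 in luminal controls. With Hoxc4 they were the 3 of 39 members whose luminal groups did not overlap and were higher with the knockout label. Hoxb6, with 1, 0 and 1 counts, against 2, 2 and 6 in luminal controls, was the 1 that was lower. Among the genes tested 13.1% were higher and 12.3% lower throughout, a set without genes as low as Hoxd10, Hoxc6 and Hoxb6. Without the filter edgeR called 0 of 38 members, with adjusted p = 0.195 for Hoxd10 and 0.281 for Hoxc6, where 1.94% of genes were called. Hoxa9 had 7, 8 and 0 counts in luminal knockout-labelled libraries, against 0, 1 and 1 in luminal controls, and Hoxc8 had 3, 2 and 5, against 4, 2 and 0 in luminal controls. Hoxa7 had 7, 4 and 1 counts in luminal knockout-labelled libraries, against 3, 1 and 8 in luminal controls, and Hoxc9 had 0 in each, against 0, 2 and 1 in luminal controls. The fibroblast marker sum was 195, 465 and 383 CPM in luminal knockout-labelled cells, against 115, 264 and 571 CPM in luminal controls. The keratinocyte sum was 134, 345 and 214 CPM in luminal knockout-labelled cells, against 75.7, 39.5 and 306 CPM in luminal controls. The part of these cells in the counts was not tested.

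The difference between the luminal and the basal effect of the knockout label passed for 0 of 9 members in edgeR, where 0.275% of genes passed, and 1 had an unadjusted p under 0.05, as for 9.84% of genes tested. DESeq2 and limma-voom called 0 members, where they called 2.3% and 0.148% of the genes they tested. The member with an unadjusted p under 0.05 was Hoxb9, with a log2 difference of -3.22 (SE 1.38, adjusted p = 0.469). Hoxc4 had a difference of 2.52 (SE 1.40, adjusted p = 0.630), Hoxd8 of -1.68 (SE 0.98, adjusted p = 0.662) and Hoxb2 of -0.87 (SE 0.52, adjusted p = 0.677). The 95% interval of the difference ran from -2.01 to 0.27 for Hoxb2 and from -3.83 to 0.46 for Hoxd8, so these libraries leave both 0 and a large difference within it.

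Between the control cell types, 1 of the 9 tested members, Hoxc4, was lower in luminal cells and 0 were higher, where 33.2% of genes tested were called, 16.3% higher and 16.8% lower. Hoxc4 had 0, 0 and 1 counts in luminal controls, against 5, 8 and 11 in basal controls, a ratio of 0.0419 (exact 95% counting interval 0.00102 to 0.257, adjusted p = 0.0163 in edgeR). Without luminal control replicate 1 or 2 the call was lost, with an adjusted p of 0.0595 and 0.0579. None of the trio passed: the log2 fold change of luminal over basal controls was 0.30 (95% interval -0.51 to 1.10) for Hoxb2, -0.14 (-1.20 to 0.91) for Hoxb3 and 0.07 (-0.65 to 0.79) for Hoxb4. The median of the 9 was -0.62, against 0.04 over all genes tested. Because a member high in 1 group can pass the filter through that group alone, this median describes the members and does not weigh for a difference. Of the low members, Hoxc5 had 1, 0 and 0 counts in luminal controls, against 1, 2 and 3 in basal controls, and Hoxc10 had 0 in each luminal control, against 1, 2 and 1 in basal controls. The 16 fibroblast markers summed to 115, 264 and 571 CPM in luminal controls, against 2954, 2618 and 2066 CPM in basal controls. Of the 16, 4 were lower in luminal cells and 1 higher. The part of fibroblasts in these Hox differences was not tested.

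Between the knockout-labelled cell types, which share libraries with the comparisons above, 3 of the 9 were lower in luminal cells and 0 were higher, where 40.6% of genes tested were called, 19.2% higher and 21.4% lower. Hoxb9 had 2 summed counts in luminal knockout-labelled cells, against 37 in basal ones, a ratio of 0.0452 (exact 95% counting interval 0.00527 to 0.175, adjusted p = 0.00754 in edgeR). Hoxd8 had a log2 fold change of -2.31 (SE 0.67, adjusted p = 0.0174) and Hoxa10 one of -1.90 (SE 0.70, adjusted p = 0.0482). As in the basal comparison, a member high in 1 group can pass the filter through that group alone. The count of 3 lower and 0 higher therefore describes the members and does not weigh for a difference. Without basal knockout-labelled replicate 1 or 2, 1 member, Hoxb9, was called. Without the filter 7 of 38 members were called, all lower in luminal cells, where 28% of 21487 genes were called, 2808 higher and 3211 lower. The trio had log2 fold changes of -0.57 (SE 0.37) for Hoxb2, -0.65 (SE 0.48) for Hoxb3 and -0.50 (SE 0.33) for Hoxb4, none of which passed. The 16 fibroblast markers summed to 195, 465 and 383 CPM in luminal knockout-labelled cells, against 4992, 5592 and 3445 CPM in basal ones. Of the 16, 14 were lower in luminal cells and 0 higher, against 21.4% and 19.2% of all genes tested. The part of fibroblasts in these Hox differences was not tested.

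Genes that work with Hox proteins or act on the clusters were counted beside the members. With the knockout label, 3.03% of all genes tested were called in luminal cells and 0.671% in basal cells, so lists of this length would hold few or no calls at those shares. Of 8 tested genes for Hox partner proteins of the Pbx, Meis and Pknox families, 1 rose and 0 fell in luminal knockout-labelled cells and 0 passed in basal ones. The riser was Pknox2, a Meis-related gene, with 4.67 ± 1.92 CPM in luminal knockout-labelled cells and 1.15 ± 0.35 CPM in luminal controls (SD, n = 3 each; log2 fold change 2.03, SE 0.36, adjusted p = 0.0147 in edgeR). Pknox2 had 24.4 ± 1.74 CPM in basal knockout-labelled cells and 23.4 ± 6.32 CPM in basal controls. Between the controls, where 16.3% of all genes tested were higher and 16.8% lower in luminal cells, Pknox2, Pbx3 and Pknox1 were lower in luminal cells and Meis3 higher, with log2 fold changes of -4.34 (SE 0.37), -1.32 (SE 0.22), -0.75 (SE 0.23) and 0.61 (SE 0.16).

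Of 19 tested Polycomb genes, 0 were called in edgeR with the knockout label in basal cells and 0 in luminal cells, with 0 and 1 at an unadjusted p under 0.05. Over all genes tested, 8.88% and 17.2% had such a p. Of 14 trithorax and H3K27 demethylase genes, 0 and 0 were called, with 0 and 3 at an unadjusted p under 0.05. Of 13 retinoid receptor and enzyme genes, 0 and 0 were called, with 2 and 3 at an unadjusted p under 0.05. Of 9 tested genes flanking the clusters, 0 and 0 were called, with 0 and 1 at an unadjusted p under 0.05. Between the controls, 3 of 19 Polycomb genes were higher in luminal cells and 2 lower, against 16.3% and 16.8% of all genes tested. Of the 14 trithorax and H3K27 demethylase genes, 1 was higher and 1 lower. The retinoid list had 3 of 13 higher and 3 lower, and the flanking list 1 of 9 higher and 0 lower. Bmi1, Cbx7 and Mtf2 were the Polycomb genes higher in luminal cells, and Rnf2 was among those lower. Bmi1, a subunit of Polycomb complex 1, averaged 46.2 ± 4.98 CPM in luminal controls and 22.1 ± 3.26 CPM in basal controls (SD, n = 3 each; log2 fold change 1.06, SE 0.17, adjusted p = 0.000738 in edgeR). Kdm6b, an H3K27 demethylase, had 384 ± 99.3 CPM in luminal controls and 879 ± 220 CPM in basal controls (log2 fold change -1.19, SE 0.32, adjusted p = 0.0131 in edgeR), and Kmt2b was higher in luminal cells by 0.45 (SE 0.16). Of the retinoid genes, Aldh1a3, Dhrs3 and Rara were higher in luminal controls, and Aldh1a1, Cyp26b1 and Aldh1a2 lower. Aldh1a3, which makes retinoic acid, had 774 ± 425 CPM in luminal controls and 25 ± 13.1 CPM in basal controls (log2 fold change 4.95, SE 0.54), and Aldh1a1, which also makes it, had 0.689 ± 0.710 CPM in luminal controls and 11.6 ± 4.46 CPM in basal controls (log2 fold change -4.07, SE 0.56). Skap2, next to cluster A, was the 1 flanking gene called, at 31.1 ± 3.95 CPM in luminal controls and 14.3 ± 0.773 CPM in basal controls (log2 fold change 1.12, SE 0.16). Of the 16 non-coding RNA and microRNA genes listed inside the clusters, 10 were in the table and 0 passed the filter.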

How the data were processed

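The submitters deposited gene counts as whole numbers for 12 libraries, with gene lengths, and the authors had not normalized them. Per the submitters' processing notes, CASAVA 1.8.2, featureCounts and mm10 were used. An RNeasy kit gave the RNA and TruSeq RNA v2 the libraries, per the labels' protocols. No aligner, annotation, strand setting or read length was given in the sources used here. Counts of the separate library tables differed from the series table in 0 values, and no pair of replicates agreed within sampling noise (chi-square per degree of freedom of at least 11.7).

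All genes entered edgeR 4.0.16 in R 4.3.3 (quasi-likelihood F test, robust, TMM factors, default filter by group), in a model of 4 group means over 12 libraries. This left 14903 genes holding at least 99.8% of each library's counts. Adjusted p-values are Benjamini-Hochberg values over these genes, called under 0.05, and each SE was derived from the log2 fold change and its F value. For some genes with few counts in a group, the ratio of summed scaled counts is given with an exact 95% interval. Samples with the same replicate number deviated together in the luminal comparison (correlations of 0.36, 0.37 and 0.60) and between controls (0.33, 0.43 and 0.47). Correlations between unlike numbers reached 0.22 and 0.13 there, so the numbers may pair those libraries, which was not established. Samples with the same number did not deviate together in every pair of the basal groups (-0.07, 0.39 and 0.18) or between the knockout-labelled cell types (0.09, 0.47 and 0.45). The Hox members, gene lists and tests were chosen with earlier results of these data known. Named with the value in every library are the 4 members with the lowest p in each knockout comparison, the 3 highest of each cluster, paralogue group 9, Hoxc6, Hoxc8 and members called between controls; other members named were chosen after their values were seen. Alternatives were DESeq2 1.42.0, limma-voom (limma 3.58.1), other scaling, other filters, fewer libraries and a replicate block. Positions and upstream windows are RefSeq GRCm38.p6. Some items are not reported here.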

Additional observations from a re-analysis of the deposited data

How the results depend on the processing

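In the luminal comparison and in the difference of effects, 0 Hox members were called under every alternative run. In basal cells the 0 calls became 1 without the filter and 3 with DESeq2, where 0.512% and 2.46% of all genes were called, against 0.671%. Leaving out single libraries gave 0 to 3, with 0.111% to 0.928% of all genes, and Hoxd10 was called without basal knockout-labelled replicate 3 and Hoxc8, Hoxd10 and Hoxd11 without luminal control replicate 3; a missing library also relaxes the filter, which then tested up to 16 members. The 1 call between controls, Hoxc4, was 0 with the 6 compared libraries alone and 0 without the 3 libraries highest in keratinocyte markers, a setting chosen after seeing the data, and 0 to 1 when single libraries were left out, with 26.1%, 29.8% and 23.1% to 34.1% of all genes called, against 33.2%. Between the knockout-labelled cell types the 3 calls became 7 without the filter, 6 with DESeq2, 1 without those 3 libraries and 1 to 9 when single libraries were left out, with 28%, 37.8%, 28.7% and 31.2% to 44% of all genes called, against 40.6%. A replicate block changed no Hox count: 0, 0, 0, 1 and 3 in the 5 comparisons, while over all genes it called 693 higher and 404 lower in luminal cells, against 329 and 122 without it.

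Of 784 alternative values for 39 named fold changes, 745 kept direction and side of the threshold, 20 lost their call (those of Hoxc4 between controls and of Hoxd8 and Hoxa10 between the knockout-labelled cell types) and 19 reversed; the cause was not tested. Without the 3 keratinocyte-high libraries the log2 fold change was -0.0152 for Hoxb3 in basal cells, -0.29 for Hoxd8 and -0.83 for Hoxd4 in luminal cells, and -0.0872 for Hoxb4 between controls. Hoxd4 in luminal cells was -0.0636 with the replicate block, and Hoxb3 between controls was 0.0758 with limma-voom. When single libraries were left out, Hoxb3 ran from -0.20 to 0.58 and Hoxb9 from -0.0653 to 1.12 in basal cells, Hoxd8 from -0.29 to 0.54 and Hoxd4 from -0.82 to 1.37 in luminal cells, and Hoxb3 from -0.55 to 0.17 and Hoxb4 from -0.0860 to 0.21 between controls. Hoxa10 in basal cells was called under no alternative, with adjusted p-values from 0.0811 to 0.494. Outside Hoxb2, Hoxb3 and Hoxb4 no member had more than 68 counts in a library, which limits the precision of each.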

Other observations

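Other homeobox and T-box genes of mammary epithelium were listed beside the Hox members. Of 13 tested, 3 were higher in luminal controls (Msx2, Six4 and Irx3) and 3 lower (Irx4, Tbx2 and Msx1), where 16.3% of all genes tested were higher and 16.8% lower. Irx4, an Iroquois homeobox gene known for heart ventricle identity, averaged 0.583 ± 0.366 CPM in luminal controls and 114 ± 58.9 CPM in basal controls (SD, n = 3 each; log2 fold change -7.60, SE 0.73). Msx2, a homeobox gene needed for mammary development in mice, averaged 22.0 ± 8.55 CPM in luminal controls and 2.42 ± 2.84 CPM in basal controls (log2 fold change 3.17, SE 0.74, adjusted p = 0.00688 in edgeR). Tbx2, a T-box gene, had 2.46 ± 0.701 CPM in luminal controls and 17.5 ± 2.27 CPM in basal controls (log2 fold change -2.83, SE 0.35). Its levels in the knockout-labelled cells were 1.54 ± 0.831 CPM in luminal and 19.4 ± 2.77 CPM in basal cells. With the knockout label, 0 of the 13 were called in basal cells and 0 in luminal cells in edgeR, where 0.671% and 3.03% of all genes tested were called. An unadjusted p under 0.05 was reached by 2 and 5 of them, against 8.88% and 17.2% of all genes tested.

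Salivary gland markers were high in luminal libraries: 10 such genes summed to 84335, 23025 and 20069 CPM in luminal knockout-labelled cells, against 122307, 11131 and 70175 CPM in luminal controls, so the groups overlapped. The trio of Hoxb2, Hoxb3 and Hoxb4 had 25.5 CPM in luminal control replicate 1, the library with the highest sum, within the range of the other luminal controls, 18.5 to 29.1 CPM. The part of salivary cells in the Hox levels was not tested.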
